A study of Homo sapiens with 3 samples.

Results

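The genes described here make or regulate the machinery that displays peptides on the cell surface: HLA-B, HLA-C, HLA-E and B2M of class I, TAP1 and TAP2 of peptide transport, NLRC5 as the class I transactivator, and HLA-DRA and CD74 of class II. Accessible regions were assigned to them by position alone, namely every interval with a summit in the gene body or within 20 kb of its outer ends in RefSeq GRCh38. The 9 genes gathered 46 of the 145092 summit entries of the peak list, in 17 of its 65234 distinct regions (entries with the same bounds). The regions came from ATAC-seq, in which Tn5 transposase tags open DNA, on neurons grown from the KOLF2.1J-hNGN2 line, a derivative of a widely shared human pluripotent reference line in which the transcription factor NGN2 drives neuronal fate. Every sample came from this single line, 100000 cells each, harvested on day 14 of differentiation, with 3 biological replicates and no other genotype, treatment or time. All 3 replicates stand behind 1 list with no value per sample, so no spread between replicates can be given and nothing was tested between groups.

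Class I molecules consist of a heavy chain, such as HLA-B, HLA-C or HLA-E, and the light chain encoded by B2M. They show peptides from the cell's own proteins to cytotoxic T cells, and the TAP1 and TAP2 proteins form the pump that carries those peptides into the endoplasmic reticulum. Class II molecules, with HLA-DRA as an alpha chain and CD74 as the invariant chain that escorts them, are typical of professional antigen-presenting cells such as B cells and dendritic cells. NLRC5 and its relative CIITA raise transcription of class I and class II genes through promoter elements named X and Y boxes, bound by RFX, CREB and NF-Y factors. Neurons are known for low class I levels at rest that interferon can raise.

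Promoter sequences are shown first because 11 of the 17 regions lay at the start of a protein-coding gene. The RefSeq promoter table (GRCh38.p14) held 6 of the 9 genes, and HLA-E, NLRC5 and HLA-DRA had no entry. Each line gives the 200 bases before the first annotated start, 5′ to 3′ on the gene's own strand, and ends at the base next to the start. Capitals mark matches to any of the words listed after the sequences. The intervals are chr6:31357180-31357379 for HLA-B, chr6:31272093-31272292 for HLA-C, chr6:32853705-32853904 for TAP1, chr6:32838740-32838939 for TAP2 and chr5:150412911-150413110 for CD74, all on the minus strand. B2M is on the plus strand at chr15:44711317-44711516.
HLA-B: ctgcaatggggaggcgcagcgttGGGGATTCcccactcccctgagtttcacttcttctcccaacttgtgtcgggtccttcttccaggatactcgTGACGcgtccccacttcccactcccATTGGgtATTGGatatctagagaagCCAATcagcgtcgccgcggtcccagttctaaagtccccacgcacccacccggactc
HLA-C: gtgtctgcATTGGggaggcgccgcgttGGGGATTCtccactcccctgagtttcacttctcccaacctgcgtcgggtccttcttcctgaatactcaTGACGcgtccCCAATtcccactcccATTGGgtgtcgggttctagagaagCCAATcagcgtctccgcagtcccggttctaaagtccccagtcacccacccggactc
B2M: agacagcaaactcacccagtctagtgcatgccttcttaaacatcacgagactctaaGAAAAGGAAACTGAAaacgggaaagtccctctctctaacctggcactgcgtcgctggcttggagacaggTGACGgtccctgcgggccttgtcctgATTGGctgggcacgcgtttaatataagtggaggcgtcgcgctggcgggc
TAP1: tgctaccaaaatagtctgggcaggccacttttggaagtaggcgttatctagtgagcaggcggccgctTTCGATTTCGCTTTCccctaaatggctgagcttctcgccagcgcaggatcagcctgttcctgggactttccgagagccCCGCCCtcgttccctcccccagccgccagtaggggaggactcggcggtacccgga
TAP2: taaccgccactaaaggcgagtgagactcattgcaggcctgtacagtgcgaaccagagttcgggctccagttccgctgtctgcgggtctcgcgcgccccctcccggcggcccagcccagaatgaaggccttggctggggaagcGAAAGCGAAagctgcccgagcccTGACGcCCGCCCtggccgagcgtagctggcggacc
CD74: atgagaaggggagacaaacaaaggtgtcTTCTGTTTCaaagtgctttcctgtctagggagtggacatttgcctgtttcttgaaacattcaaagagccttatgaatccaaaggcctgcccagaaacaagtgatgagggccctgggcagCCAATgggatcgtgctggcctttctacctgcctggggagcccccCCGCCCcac

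The words were searched on both strands. They were CCAAT (the Y box core, bound by NF-Y), TGACG (the X2 or CRE core), GAAANNGAA (the core of interferon-stimulated response elements, ISRE), TTCNNNGAA (the GAS element of interferon-gamma responses), GGGANTTCC (a kappa B word), GGGCGG (a GC box) and TATAAA. The word GGGGATTC, from the element of class I promoters named enhancer A, was added after the sequences had been seen. Matches of different words may overlap, and a match is a description of letters, not evidence of binding. Each word has fixed letters and spacing, so lack of a match does not show that the element is absent.

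All 3 class I promoters in the table carried both X2 and Y box letters. HLA-B had TGACG at 106 to 102 bases before its start and CCAAT, in either orientation, at 81 to 77, 74 to 70 and 56 to 52. HLA-C had TGACG at 105 to 101 and CCAAT 4 times, with the match nearest to the start again at 56 to 52. B2M had TGACG at 75 to 71 and CCAAT at 49 to 45. These letters were not limited to class I: TAP2 had TGACG at 35 to 31, and CD74 had CCAAT at 53 to 49, near the place of the last match in HLA-B and HLA-C. Among 22199 promoters of protein-coding genes in the table, 28.9% held CCAAT and 21.2% held TGACG in the same 200 bases. The HLA-B and HLA-C stretches shared 179 of 200 bases (89.5%), and both held GGGGATTC, which 0.613% of promoters held.

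The ISRE word GAAANNGAA occurred as 2 overlapping matches in B2M, at 144 to 136 and 138 to 130 bases before the start, and as 2 overlapping matches in TAP1, at 133 to 125 and 127 to 119. It occurred once in TAP2, at 58 to 50, and once in CD74, at 172 to 164, while 4.68% of promoters held it. HLA-B and HLA-C had no match to these exact letters in this window, and near matches were not sought. A GC box occurred in TAP1, TAP2 and CD74, against 50.9% of promoters. None of the 6 stretches matched TTCNNNGAA, GGGANTTCC or TATAAA (4.51%, 1.604% and 7.36% of promoters). TAP1 and, in antisense letters, B2M hold GGGACTTTCC, a longer run than GGGANTTCC that this word does not count. The table lists another TAP1 start, at base 32852761, and the 200 bases before it (chr6:32852762-32852961) held TTCNNNGAA at 189 to 181. CD74 stood apart in composition with 2 CpG dinucleotides (percentile 10.5 of the promoters), while the other 5 had 12 to 19 against a median of 14.

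A region was counted at a gene start when any of its summits lay within 1 kb of a start in the promoter table, or of either outer end for genes without an entry. By this measure 8 of the 9 genes had an accessible start, with CD74 as the exception, against 69.8% of all 20037 protein-coding genes. The share was 72.4% of the 15842 genes with a start in the table, and 68.8% when either outer end of every gene was used. All 4 class I genes, both peptide transport genes, NLRC5 and 1 of 2 class II genes had one. The count describes these genes and was not tested.

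**Figure D1:**
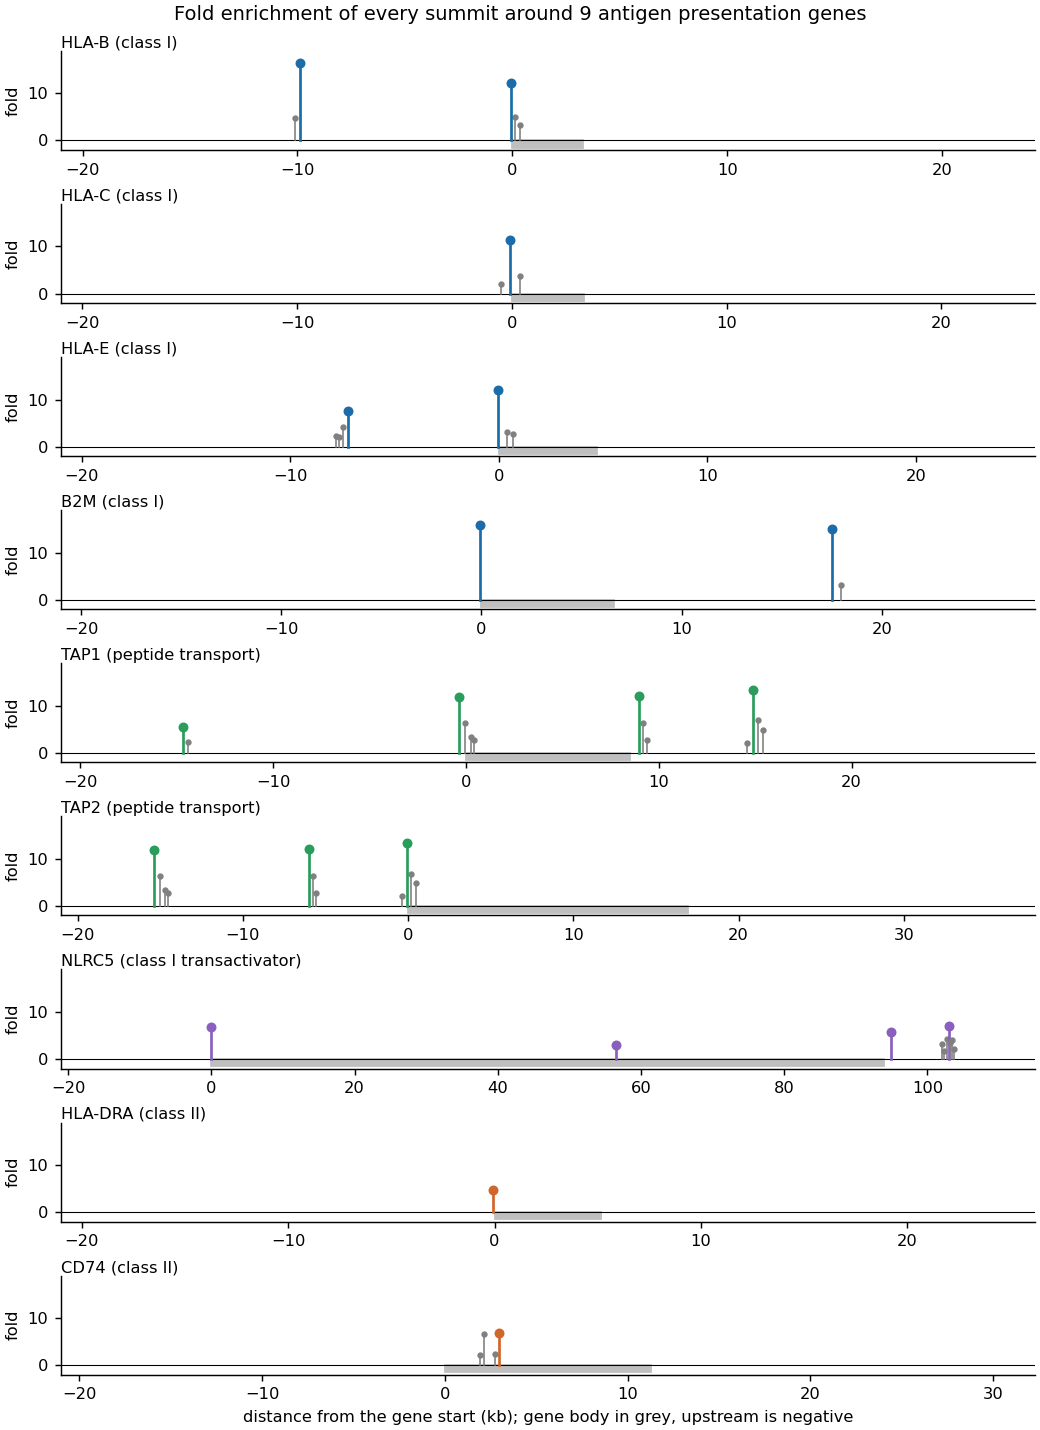
Fold enrichment (linear, vertical axis) of every summit in the regions around each gene, by distance from its start in kb, with the gene body in grey and upstream to the left. Coloured stems are the strongest summit of each region and thin grey stems the other summits. For HLA-E, NLRC5 and HLA-DRA distance is from the lower-coordinate end. Class I genes and TAP2 each have a stem above 11 at the start. The tallest stem near the TAP1 start, 11.8, lies 384 bases upstream, 104 bases from the PSMB9 start. HLA-DRA has a single stem of 4.80, and CD74 has none at its start.

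Fold enrichment, the authors' ratio of tags at a summit to the local background, is given with the number of tags at that summit, recovered from the fold and its p-value, and an exact Poisson 95% interval for the tags. Intervals cover counting error only and not the spread between replicates. PCR copies are not independent molecules and would make the intervals too narrow, and whether such copies were removed is not given. At the HLA-B start the region chr6:31356475-31357758 had a fold enrichment of 12.1 with 585 tags (interval 539 to 634). At HLA-C the region chr6:31271302-31272708 reached 11.3 with 644 tags (595 to 696). The third heavy chain gene, HLA-E, which presents leader peptides to natural killer cell receptors, had a fold of 12 with 660 tags (611 to 712) at chr6:30489088-30490557. Tag intervals of HLA-B, HLA-C and HLA-E overlap, and the order of these 3 starts was not tested.

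B2M exceeded the heavy chain genes. Its region chr15:44710910-44712203 had a fold enrichment of 15.8 with 1420 tags (interval 1347 to 1496), more tags than any heavy chain start with no overlap of intervals. It had a single summit, where each heavy chain region had 3. The same region covers the start of PATL2, a neighbouring gene, so its tags cannot be assigned to B2M alone. HLA-B, HLA-C and HLA-E belong to a family of similar genes. How reads fitting several of them were treated is not given in the sources used here. The tag counts of these 3 genes are therefore uncertain by more than counting error.

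By tags the peptide transport genes lay between the heavy chain genes and B2M, and by fold TAP2 did so while TAP1 was below HLA-B and HLA-E. TAP2 had a fold enrichment of 13.4 with 910 tags (852 to 971) at chr6:32837863-32839182. The region at the TAP1 start, chr6:32852989-32854603, had its strongest summit 384 bases upstream of TAP1 with a fold of 11.8 and 816 tags (761 to 874). That summit is 104 bases from the start of PSMB9, an immunoproteasome subunit gene, and the 2 genes share the region. The summit nearest to the TAP1 start, 57 bases upstream, reached 6.30 with 436 tags (396 to 479). By this nearer summit TAP1 was below the class I genes.

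NLRC5 and HLA-DRA had weaker starts. At the lower-coordinate end of NLRC5 the region chr16:56989100-56989985 had a fold enrichment of 6.86 with 316 tags (282 to 353). HLA-DRA had chr6:32439675-32440069 at its lower-coordinate end, with 4.80 and 144 tags (121 to 170). Neither tag interval overlapped those of the class I or TAP starts, and they did not overlap each other. The HLA-DRA region was 395 bp wide, narrower than all but 0.429% of the regions at protein-coding starts, and its local background was 29.2 tags, the floor of the list. No other region lay in its 45.2 kb window.

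CD74 was open inside the gene and not at its annotated start. Its region, chr5:150409802-150411065, held 4 summits at 1935 to 2953 bases downstream of the start. The strongest had a fold enrichment of 6.93 with 455 tags (414 to 499) and the next 6.64 with 424 tags (385 to 466), so their intervals overlap. The nearest of the 4, at 1935 bases, had a fold of 2.17 and 138 tags (116 to 163). With a start window of 2 kb in place of 1 kb, CD74 would therefore count as accessible at its start.

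Rank among all genes depended on the measure. Among the 13976 protein-coding genes with a region at the start, the median fold enrichment was 10.6 (quartiles 7.19 and 13.4) and the median tag count 961 (quartiles 529 and 1437). By fold, HLA-B, HLA-C, HLA-E and TAP1 stood at percentiles 63.2, 56.5, 62.4 and 60.4, slightly above the middle. By tags they stood at percentiles 28.2, 31.5, 32.5 and 41.8, below it. Local backgrounds moved with this: they were 47.5, 55.98, 54.1 and 68.4 tags at these 4 starts, against a median of 87.3 over all genes. The part of the background in these ranks was not tested. B2M, with a background of 88.7 tags, stood at percentile 93.1 by fold and 74.1 by tags. TAP2 was at 75.4 and 47.5, NLRC5 at 22.7 and 12.7, and HLA-DRA at 10.1 and 1.90. On both measures B2M was the highest of the 8 and HLA-DRA the lowest.

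**Figure D2:**
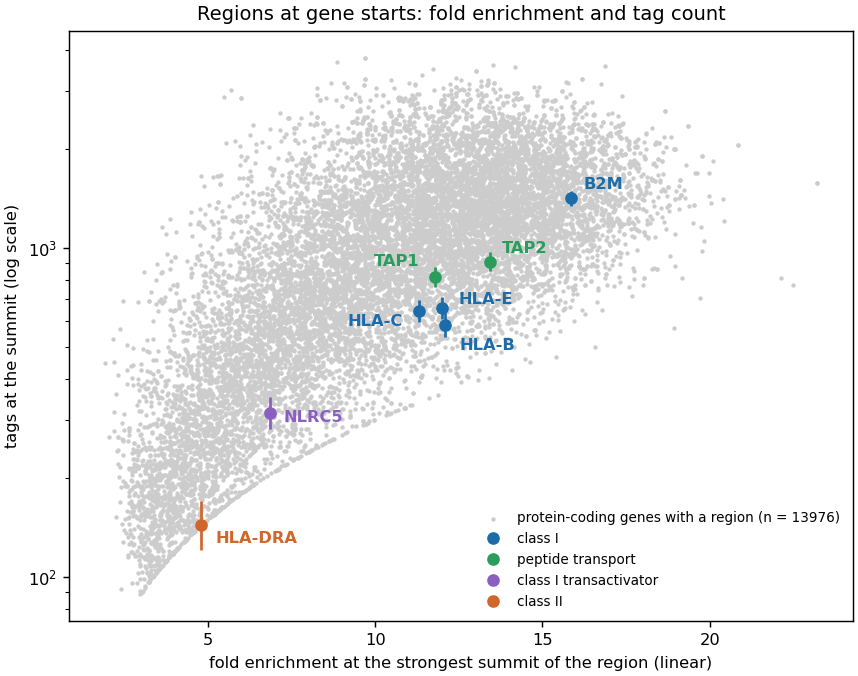
Tags at the strongest summit (vertical, log scale) against its fold enrichment (horizontal, linear) for the 13976 protein-coding genes with a region at the start (grey) and 8 antigen presentation genes (coloured by group, bars are exact Poisson 95% intervals of the tags). HLA-B, HLA-C and HLA-E sit together at 11.3 to 12.1 fold and 585 to 660 tags, and HLA-DRA lies on the lower edge of the cloud.

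At 7 of the 8 accessible starts the strongest summit lay 26 to 89 bases outside the start or outer end, and at TAP1 it lay 384 bases upstream. It was 80 bases before the HLA-B start, 69 before HLA-C, 57 before B2M and 86 before TAP2. It was 59, 26 and 89 bases outside the lower-coordinate ends of HLA-E, NLRC5 and HLA-DRA. Over 11462 protein-coding genes with a start in the table the strongest summit had a median of 57 bases upstream (quartiles 15 and 116), so the 7 lie within these quartiles and TAP1 outside them. In the printed sequences the HLA-B summit is base 121, inside the CCAAT match at 81 to 77 in antisense letters. The HLA-C summit is base 132, between CCAAT matches, and the B2M summit is base 144, between TGACG and CCAAT. The TAP2 summit is base 115, upstream of its GAAANNGAA match.

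Outside the starts, 6 of the 17 regions had their strongest summit beyond 1 kb of any protein-coding start. The region chr6:31366698-31367569, was among them and had the highest fold enrichment of the 17. Its summit lay 9.89 kb upstream of HLA-B and 104 bases from an end of the pseudogene DHFRP2, with a fold of 16.5 and 529 tags (485 to 576). This is percentile 99.1 of all 65234 regions by fold and percentile 78.5 by tags, over a background of 31.2 tags. The tag interval overlaps that of the HLA-B start.

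The B2M window held the region with the most tags. At chr15:44728472-44729664, its summit lay 17.5 kb downstream of the B2M start and inside the pseudogene RNF4BP, 16 bases from an end of it. It had a fold enrichment of 15.1 and 1581 tags (1504 to 1661), more than the B2M start itself. The nearest protein-coding start was that of TRIM69, at 7524 bases. HLA-E had a second region at chr6:30481237-30482536, 7.26 kb beyond its lower end, with 7.51 and 226 tags (197 to 257). Its background of 29.2 tags was the floor of the list. HLA-C had no region but the one at its start.

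The TAP genes lie side by side with PSMB8 and PSMB9, which encode catalytic subunits of the immunoproteasome, and their windows shared 3 regions. The middle one, chr6:32844195-32845096, had its summit 57 bases from the start of PSMB8 and inside PSMB8-AS1, with a fold enrichment of 12.1 and 591 tags (544 to 641). The TAP1 window held a further region at chr6:32868046-32868538, 14.7 kb upstream of TAP1, with 5.39 and 162 tags (138 to 189). This last one rested on the background floor. The 3 shared regions had folds of 11.8 to 13.4.

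The long NLRC5 gene, of 94.0 kb, had little open chromatin inside. The only region in the gene body, chr16:57045576-57046115, had a fold enrichment of 3.06 and 125 tags (104 to 149), at percentile 4.98 of all regions by fold. A region at chr16:57084288-57084744 lay 924 bases beyond the higher-coordinate end, and counts among the starts only because outer ends stand in for the start of NLRC5. It had 5.70 and 251 tags (221 to 284). The strongest in the window, chr16:57091469-57093300, with 7 summits and a fold of 7.12 with 583 tags (537 to 632), was 51 bases from the start of another gene, CPNE2.

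Region counts per window were read beside those of other genes. The class I windows held a mean of 1.75 regions, the TAP windows 3.5, NLRC5 4 and the class II windows 1. Genes with windows within 20% of the same length had a median of 2 regions, or 3 for NLRC5. HLA-DRA, HLA-C and CD74, with 1 region each, stood at percentiles 19.3, 20.2 and 15.1 of such genes. HLA-B, HLA-E and B2M, with 2 each, stood at 41.4, 40.5 and 39.0. TAP1, with 4, was at percentile 78.3, TAP2, with 3, at 55.3 and NLRC5, with 4, at 53.8. The TAP windows share 3 regions, so they hold 4 distinct ones between them. Median fold enrichment was 12.1 over the 7 class I regions, 11.9 over the 4 TAP regions, 6.28 over the 4 NLRC5 regions and 5.86 over the 2 class II regions, against 5.601 over all regions of the list. Median tags were 644, 703.5, 283.5 and 299.5 in the same order, against 238 over all regions. Of the 17 regions, however, 11 lay at protein-coding starts. Over all protein-coding genes with a region at the start the medians were 10.6 fold and 961 tags.

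Other genes of the pathway were taken from lists chosen by function, 52 genes in all, of which 41 had a region at the start (78.8%), against 69.8% of all protein-coding genes. The class II list had the lowest share of the 5 lists, at 6 of 12 genes (50.0%). HLA-DMB, a chaperone chain that loads class II molecules, was highest at 8.41 fold with 253 tags, followed by HLA-DOA at 4.998 with 161 tags and HLA-DPA1 at 3.96 with 146 tags. HLA-DRB5, HLA-DQA1, HLA-DQB1, HLA-DPB1, HLA-DOB and CTSS, the gene for cathepsin S, had none. The nearest summits to the starts of HLA-DQA1 and HLA-DQB1 were 27418 and 34024 bases away. The median fold over the 6 accessible genes was 3.87, below the lower quartile of 7.19 over all genes, and HLA-DRA, at 4.80, fell within their range of 2.93 to 8.41. Some HLA-D genes also resemble each other in sequence, and the treatment of shared reads was not tested. How far this line's own HLA-D sequences match the reference genome was not tested either.

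All 8 proteasome genes had a region at the start, with folds of 9.91 to 14.4. PSMB5 was highest at 14.4 with 1104 tags, followed by PSMB10 at 12.2 and PSMB8 at 12.1, and PSMB9 shares the 11.8 of TAP1. The PSMB10 value is that of a stronger summit farther from its start than the nearest one, at 507 bases. By the strongest summit alone the count over all pathway lists was 40 in place of 41. In the peptide loading list 5 of 7 genes (71.4%) had one, close to the 69.8% of all protein-coding genes, led by PDIA3 (13.96), CALR (12.5) and CANX (12.5), which encode folding chaperones of the endoplasmic reticulum. TAPBP, for tapasin, which bridges TAP to class I molecules, had no summit within 3755 bases of a listed start, and ERAP2, a peptide-trimming enzyme, none within 6692 bases. Among other class I genes and relatives, HLA-F reached 11.8 with 402 tags, MICA 7.77 and CD1D 4.58, and HLA-G and HFE had no region at the start.

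Regulators had a region at the start in 17 of 18 genes, against 69.8% of all protein-coding genes, with a median fold of 11.2 against 10.6 over all genes with one. RFXAP, a subunit of the RFX complex, at 13.98 with 1532 tags, and IFNGR1, an interferon-gamma receptor chain, at 13.6 with 1202 tags, were among the 3 highest. IRF8, a factor of myeloid and B cells, was without. CIITA, the class II transactivator, has no start in the promoter table and counts among the 17 through an outer end, which may not be its start. There it had a fold of 6.06 with 871 tags, in a region shared with DEXI, a neighbouring gene. Accessibility at the CIITA start itself was not tested. The values of NLRC5 were 6.86 and 316 tags.

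**Figure D3:**
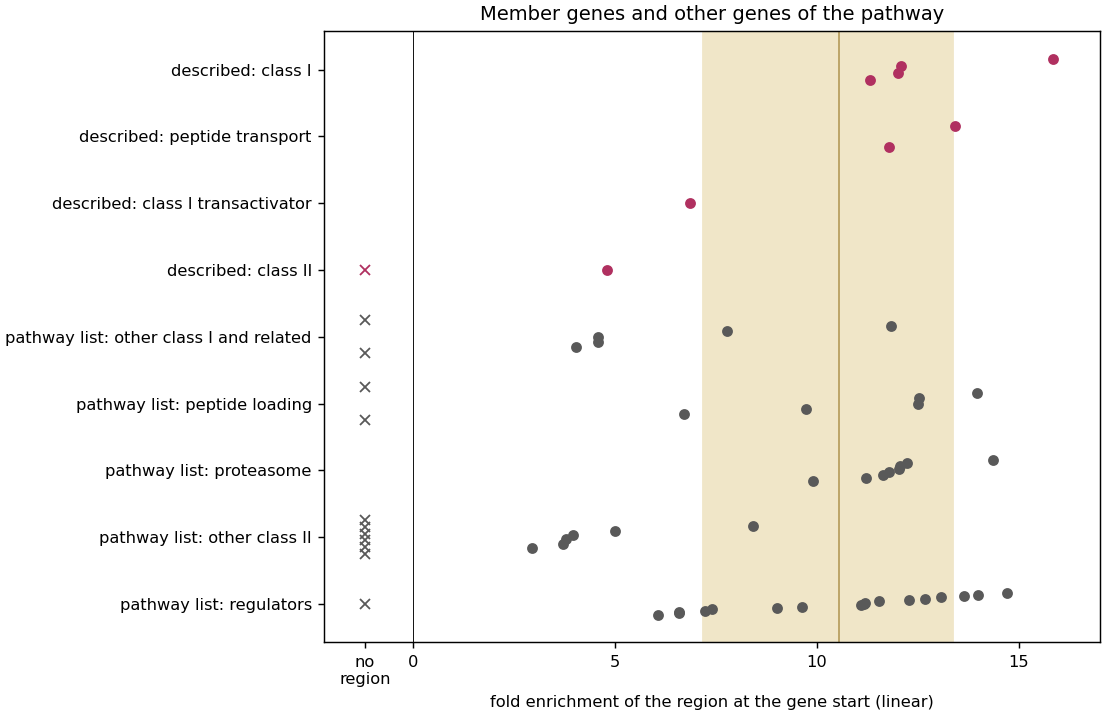
Fold enrichment (linear, horizontal) of the region at each gene's start for the 9 described genes (red) and the 52 genes of 5 pathway lists (grey), with crosses for genes without a region. The band spans the quartiles, 7.19 to 13.4, and the line the median, 10.6, of protein-coding genes with a region. Class II genes lie left of the band except for HLA-DMB at 8.41, whereas proteasome genes lie at 9.91 or above.

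Markers were checked because class II genes are typical of immune cells. All 12 neuron markers had a region at the start, against 69.8% of all protein-coding genes. Their folds were 3.24 to 10.8, and their median of 7.30 was near the lower quartile of 7.19 over all genes with a region. ELAVL4 counts through a weaker summit 1 base from its start, and its fold of 7.41 is that of a summit farther away. Of 10 microglia and myeloid markers only CD14 had one, at 3.60 with 123 tags, and AIF1, CX3CR1, P2RY12, CSF1R, PTPRC and SPI1 were among the 9 without. Of 8 B and dendritic cell markers only PAX5 had one, at 2.68 with 184 tags. Of 6 pluripotency markers LIN28A and DPPA4 had one, at 3.04 and 5.41, and POU5F1 and NANOG did not. Of 5 astrocyte markers 4 had one, with folds of 3.87 to 12.5 and GFAP as the exception. Markers without a start in the promoter table were counted at either outer end, which may not be the start. S100B (8.87), LIN28A and STMN2 are among them. Whether a few cells of another kind contributed to the HLA-DRA region was not tested, and in a bulk list few open cells and weak opening in all cells cannot be told apart.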

How the data were processed

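ATAC-seq was measured in 3 samples of 1 group, and the labels list a single peak file for all of them, named as an optimal set by irreproducible discovery rate. The genome build is hg38, per the submitters' processing notes, and the aligner, peak caller and filters are not given in the sources used here. For each summit the authors give a linear ratio (fold enrichment over local background), a −log10 p, a score and the summit position.

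Tag counts were recovered by solving for the whole number that gives both the fold, with a pseudocount of 1 on tags and background, and the Poisson upper-tail p. The largest miss over 145092 entries was 0.00079 units of −log10 p. On simulated data 100% of 20000 tag counts were recovered. The depth of each sample is unknown. Entries with equal bounds were merged, and each region is represented by its most significant entry. Starts came from the RefSeq promoter table for 15842 of 20037 protein-coding genes and otherwise from outer ends in the RefSeq gene table (GRCh38.p14). Of the former, 72.4% had a summit within 1 kb in place and 8.22% after a shift of 10 kb. Positions count from 1. All 102 listed genes matched, 1 by an older symbol.

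Percentiles give the share of genes or regions with a lower value. No test was made, because the list holds no replicate values. The genes and lists were chosen with earlier results of these data known. Named are the 9 genes, every region in their windows, neighbouring genes for location, the 3 highest of each pathway list and those without a region, except 1 regulator that is not reported here. Alternatives were other windows, any overlap, every entry, a score of at least 830, only regions above the median fold, outer ends, tag counts and the nearest summit. Some choices were made after the data had been seen. A start was first counted by the strongest summit of a region, and any summit was allowed after PSMB10 and ELAVL4 were seen to have weaker summits nearer their starts, with the first rule kept as an alternative. Starts of protein-coding genes alone decide which regions lie at a start, motifs were sought in 200 bases before the start, and GGGGATTC was added. Promoter identity came from global alignment in Biopython 1.88 (match 1, mismatch -1, gap opening -3, gap extension -1). Python 3.11.15, numpy 2.4.6, scipy 1.17.1, pandas 2.3.3 and statsmodels 0.14.6 were used.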

Additional observations from a re-analysis of the deposited data

How the results depend on the processing

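The number of regions in the gene windows, 17, stayed within 1.5 times with windows of 10 kb, any overlap, a score of at least 830 and folds above the median. It became 38 with windows of 50 kb and 46 with every summit entry counted. With 50 kb windows the mean per window was 4.25 for class I, 6 for peptide transport, 4 for class II and 7 for NLRC5. With every entry it was 4.5, 12, 2.5 and 10. Above the median fold the class II mean was 0.5. The wider windows hold more sequence and the entry count more summits per region. An accessible start was found for 8 of the 9 genes, all but CD74, with a start window of 500 bp, any overlap, a score of at least 830, outer ends and the strongest summit only, and for 9 with a window of 2 kb. Starts were not counted above the median fold, 5.601, which the HLA-DRA start (4.80) does not reach. The share of all protein-coding genes moved from 69.8% to 68.1% at 500 bp, 72.0% at 2 kb, 70.5% with any overlap, 68.2% at a score of at least 830, 68.8% with outer ends and 68.4% with the strongest summit only. The pathway count ranged from 38 to 44. Among the described genes with a region at the start, the fold at the nearest summit equalled the reported one except at TAP1. There it was 6.30 in place of 11.8. Percentiles by tags were below those by fold at all 8 genes. No paired analysis was possible because 1 list stands for all 3 samples, and no sample could be left out. The depth behind the weakest start, HLA-DRA, was 144 tags.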
